A study of Mus musculus with 24 samples.

Results

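The genes described here serve the killing and digestion of engulfed material: 4 subunits of the phagocyte NADPH oxidase (Cybb, Cyba, Ncf1 and Ncf4), the Fc receptor gene Fcgr1, the lysosomal genes Lyz2 and Ctss, and the protease inhibitor gene Slpi. They were chosen by symbol with earlier results of these data known, 8 genes in all. Each was read by 1 probe set, namely that which varied most over the arrays. Of these 8 genes, 7 had a probe set named for them among the 17097 genes tested, and Ncf1 was not analysed here.

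The study measured 24 mouse samples on Affymetrix arrays, 8 of a cell line and 16 of leukaemias. The line, BKO408, comes from a preB-ALL (acute lymphoblastic leukaemia of precursor B cells) of a Blnk knockout mouse, so both of its groups lack Blnk. It was grown with 10% serum and 5 ng/ml IL-7, and was measured as BKO408 (n = 4) and as BKO408 LAP (n = 4), the latter carrying a retrovirus for LAP, an activating isoform of C/EBPβ, the transcription factor that Cebpb encodes. The leukaemias comprised preB-ALL from Blnk knockout mice (Blnk preB-ALL, n = 5), preB-ALL of Blnk knockout mice with a Cebpb LAP transgene (LAP/Blnk preB-ALL, n = 3), preB-ALL of mice with the transgene and without the Blnk knockout (LAP preB-ALL, n = 4) and B-ALL of such mice (LAP B-ALL, n = 4). BKO408 is 1 line. Details not given in the sources used here include the promoter of the transgene, the organ and leukaemia cell share of the tumours, the age and strain of the mice and any treatment of the BKO408 controls. Whether replicates were separate cultures or animals is not stated by the labels, so a p-value reflects only how these samples spread, which may be technical.

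The phagocyte oxidase passes electrons from NADPH to oxygen across the membrane and so makes superoxide. Cybb encodes its catalytic subunit gp91phox, which is held in the membrane with p22phox, the product of Cyba. Cytosolic subunits, among them p47phox (Ncf1) and p40phox (Ncf4), and the small GTPase Rac join on activation. The complex is abundant in neutrophils and macrophages and is also found in B cells. Fcgr1 encodes the high-affinity IgG receptor of monocytes and macrophages, Lyz2 the lysozyme of myeloid cells, which breaks bacterial cell walls, Ctss a lysosomal cysteine protease of antigen-presenting cells, and Slpi a secreted inhibitor of neutrophil elastase.

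Promoter sequences are shown for Slpi and Lyz2, both of which differed strongly between BKO408 and BKO408 LAP, and for Lyz1, the neighbour and near-identical copy of Lyz2. Each sequence is the 250 bases before the RefSeq start of the gene in GRCm38.p6, all on the minus strand, at chr2:164356508-164356757 for Slpi, chr10:117282273-117282522 for Lyz2 and chr10:117292869-117293118 for Lyz1. Capitals mark matches to the C/EBP motif TTGCNNAA, or TTNNGCAA on the other strand.
Slpi: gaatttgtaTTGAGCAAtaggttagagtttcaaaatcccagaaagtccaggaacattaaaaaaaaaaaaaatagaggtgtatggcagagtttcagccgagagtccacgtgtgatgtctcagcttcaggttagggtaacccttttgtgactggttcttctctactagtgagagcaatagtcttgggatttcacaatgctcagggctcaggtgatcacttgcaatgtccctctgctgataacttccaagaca
Lyz2: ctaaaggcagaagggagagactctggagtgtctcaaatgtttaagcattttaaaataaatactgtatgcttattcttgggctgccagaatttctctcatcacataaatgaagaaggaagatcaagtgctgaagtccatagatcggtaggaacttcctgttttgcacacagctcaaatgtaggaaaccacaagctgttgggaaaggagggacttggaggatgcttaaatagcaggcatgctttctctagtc
Lyz1: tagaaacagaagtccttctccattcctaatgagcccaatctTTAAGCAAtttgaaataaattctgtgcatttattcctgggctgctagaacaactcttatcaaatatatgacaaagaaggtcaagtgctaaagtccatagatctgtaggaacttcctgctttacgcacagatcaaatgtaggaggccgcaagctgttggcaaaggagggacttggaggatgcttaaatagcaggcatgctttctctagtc

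The Slpi window held 1 match, TTGAGCAA, whose first base lay 241 bases before the start. The Lyz1 window held 1 match, TTAAGCAA, 209 bases before the start, and the Lyz2 window held none. The windows of Lyz2 and Lyz1 were identical at 200 of 252 aligned positions, or 79.4%, against 52.0% for Lyz2 and Cybb. The motif was present in 9.56% of 32851 promoter windows of the same length. Windows of Cybb, Cyba, Ncf1, Ctss and Fcgr1 held no match either, so Slpi alone among the members searched held one. No window was available for Ncf4, and the RefSeq start used for Cybb lies within the span of that gene. The PU.1 motif GAGGAA, searched on both strands, which overlapped no C/EBP match, was found once each in Ctss, 164 bases before the start, and in Fcgr1, 55 bases before it, against 23.3% of all windows. A match describes letters, and no binding was measured.

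Every value below is a log2 ratio, relative to the median over all 8 arrays for the cells and over all 16 for the tumours. They are not levels, cells and tumours cannot be set against each other, and genes cannot be ranked by abundance. Within a group, the typical gene had an SD (median over genes) of 0.0502 to 0.0602 in the cell-line groups and 0.157 to 0.236 in the tumour groups. The Cebpb probe set that varied most was read as a check of the labels. It ranged from -4.50 to -1.94 in Blnk preB-ALL and from -0.03 to 0.51 in LAP/Blnk preB-ALL. The tumour labelled LAP B-ALL 4 read -3.11, against 0.14 to 0.90 in LAP B-ALL 1 to 3. LAP preB-ALL 1, 3 and 4 read 0.03, 0.05 and 0.19, and LAP preB-ALL 2, the highest tumour in Slpi, Cybb and Lyz2, read -1.41. No call among the 7 genes changed in the comparisons of LAP preB-ALL when that tumour was left out. In the cell line the same probe set was at -0.14 to 0.01 without LAP and at -0.01 to 0.24 with it, so it did not separate these groups. For the other Cebpb probe sets, LAP/Blnk preB-ALL minus Blnk preB-ALL was -0.42 ± 0.67 and 0.38 ± 0.14 (SE), neither past the limma threshold. The check of the labels thus rests on 1 probe set. In the others LAP B-ALL 4 read -0.36 and -0.37, against 1.27 to 1.77 and -0.03 to 0.05 in LAP B-ALL 1 to 3. Results that use the tumour labelled LAP B-ALL 4, or Blnk preB-ALL 5, whose granulocyte marker genes had the highest median of the 16 tumours (3.16), are also given without them where this changes a call.

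LAP in BKO408 cells was compared first. With LAP, Slpi was 5.83-fold higher, Cybb 4.91-fold, Lyz2 2.88-fold and Fcgr1 1.33-fold, while Ctss fell by 0.20 on the log2 scale. The oxidase partners Cyba and Ncf4 did not pass the test. Of the 7 genes, 4 rose and 1 fell at a limma adjusted p under 0.05, where 10.5% of all genes rose and 11.8% fell (22.3% in all). Their median difference was 0.41, against -0.01 over all genes. By the probe sets used, Slpi, Cybb and Lyz2 ranked 2nd, 4th and 12th of 17097 genes by the size of the difference. The genes were chosen with earlier results of these data known, so these counts, the median and the ranks are a description and test nothing.

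Cybb, the catalytic subunit, was at -1.14, -1.05, -1.09 and -1.22 in BKO408 and at 1.05, 1.27, 1.12 and 1.22 in BKO408 LAP. The groups did not overlap, and the gap was far wider than the spread within either. The difference was 2.29 ± 0.05 (SE, n = 4 and 4; limma adjusted p = 7.12e-09). The other Cybb probe sets moved the same way by less, 0.79 ± 0.10 (1.73-fold; limma adjusted p = 0.00042) and 0.36 ± 0.05 (1.29-fold; limma adjusted p = 0.000789). The size of the Cybb rise therefore depended on the probe set, while its direction did not.

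Cyba, the membrane partner, was at -0.00, -0.01, -0.02 and 0.04 without LAP and at 0.00, -0.05, 0.02 and 0.01 with it. Ncf4, the p40phox gene, was at 0.01, -0.04, 0.05 and 0.04 without LAP and at -0.03, -0.02, -0.01 and 0.03 with it. Both sets of arrays overlapped. The 95% interval of the difference was -0.07 to 0.06 for Cyba (limma adjusted p = 0.929) and -0.09 to 0.04 for Ncf4 (limma adjusted p = 0.639). A change of Cyba or Ncf4 as large as that of Cybb by any of its probe sets lies outside these intervals. The deposited values hold no detection call, so whether these probe sets read above background in the cells cannot be told.

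Slpi, the elastase inhibitor, was at -1.28, -1.34, -1.22 and -1.25 in BKO408 and at 1.28, 1.22, 1.30 and 1.28 in BKO408 LAP. No array of one group came near the other, and Slpi had the smallest p of the genes tested. The difference was 2.54 ± 0.03 (SE, n = 4 and 4; limma adjusted p = 3.6e-10).

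Lyz2, the myeloid lysozyme, was at -0.74, -0.75, -0.74 and -0.73 in BKO408 and at 0.78, 0.73, 0.81 and 0.82 in BKO408 LAP. The groups were again fully apart, with a difference of 1.53 ± 0.03 (SE; limma adjusted p = 2.3e-09). The Lyz2 probe set is of a type whose probes can match near-identical copies, so its signal cannot be given to Lyz2 alone. The probe set of Lyz1 itself, the lysozyme of Paneth cells, differed by 0.10 ± 0.05 (limma adjusted p = 0.216).

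Fcgr1, the IgG receptor, was at -0.22, -0.13, -0.13 and -0.24 in BKO408 and at 0.43, 0.18, 0.13 and 0.18 in BKO408 LAP, with replicate 1 the highest of the latter. The difference was 0.41 ± 0.06 (SE; limma adjusted p = 0.00144). A further Fcgr1 probe set differed by 0.05 ± 0.05 (limma adjusted p = 0.591), so the rise was seen with 1 of 2 probe sets.

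Ctss, the cathepsin, moved the other way. It was at 0.08, 0.13, 0.13 and 0.12 in BKO408 and at -0.08, -0.12, -0.08 and -0.08 in BKO408 LAP, without overlap. The difference was -0.20 ± 0.03 (SE; limma adjusted p = 0.000422). For each of the 5 genes called, the two-sided exact permutation test gave the smallest p that 4 against 4 allows, 0.0286, which was 0.175 adjusted over the 49 exact tests of these genes. The groups of these 5 genes did not overlap, as held for 26.8% of all genes. When tumours and cells shared 1 estimate of the spread, 0 of the 7 genes and 21 of all genes were called by limma.

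**Figure D1:**
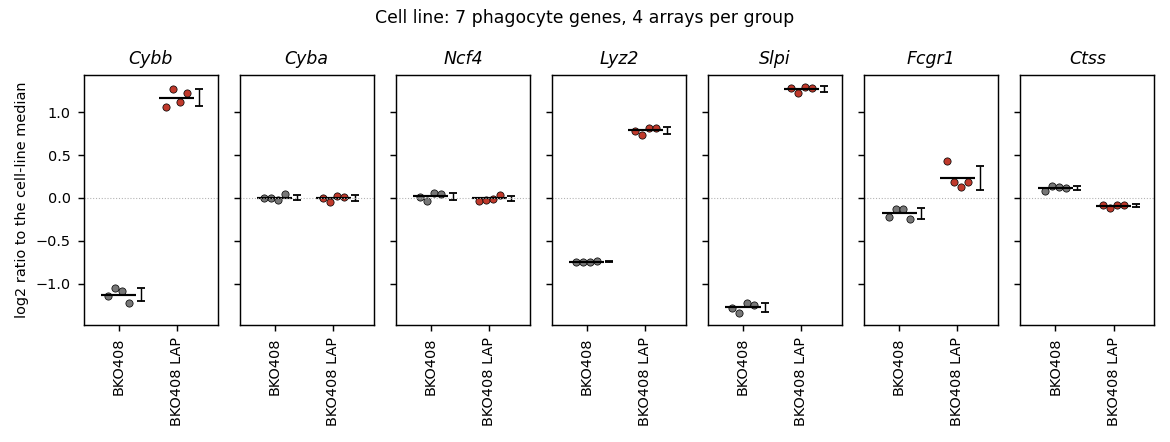
Log2 ratio (vertical axis, relative to the median over the 8 arrays of cells) of the 7 measured genes in BKO408 and BKO408 LAP; each point is 1 array and each bar the mean of its group. Slpi, Cybb and Lyz2 lie apart by 2.54, 2.29 and 1.53, Fcgr1 and Ctss by 0.41 and -0.20, and Cyba and Ncf4 overlap.

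Genes with related roles were counted in the same cells, where 22.3% of all genes passed the test, and nothing particular to a list is read from its count. Of 6 measured genes of the oxidase complex, Cybb rose and Rac2, the GTPase of the complex in blood cells, fell by 0.11 (limma adjusted p = 0.0377). Rac1 and Cybc1, which helps gp91phox and p22phox to mature, differed by -0.0040 and -0.0026. Of 5 other NADPH oxidase genes none passed the test, and Duox1 and Nox4 had the largest differences, -0.07 and 0.05. Of 16 genes that handle peroxide or superoxide 3 rose and 0 fell: Hvcn1, the proton channel that balances the charge moved by the oxidase, by 0.57 ± 0.04 (limma adjusted p = 8.8e-06), Txnrd1 by 0.23 and Gpx1 by 0.15.

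Among 18 cathepsins and other lysosomal proteases, Ctsc, which activates granule proteases, rose by 0.45 ± 0.06 and Dpp7 by 0.29, and Ctss was the 1 that fell. Ctsb and Ctsd differed by -0.03 and 0.05, short of the threshold. Of 14 protease inhibitors 2 rose, Slpi and Serpinb1a (0.23), and 3 fell, with Serpinb6a at -0.16 and Cst3, a cathepsin inhibitor, at -0.14 the largest. Of 4 lysozyme genes Lyz2 alone passed the test. Of 31 genes of the lysosomal membrane and hydrolases 3 rose and 7 fell. The largest differences among these 10 were the falls of Npc2 (-0.35), Mitf (-0.30), Manba (-0.21) and Ids (-0.18). In that order they carry cholesterol, drive transcription and, for Manba and Ids, help to break down sugar chains. The genes that rose were Tfeb (0.17), a regulator of lysosomal genes, Gla (0.17) and Scarb2 (0.09). Lipa had a larger difference, 0.36, that did not pass the test (limma adjusted p = 0.195).

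Of 10 Fc receptor genes Fcgr1 rose, and the B-lineage genes Fcrl1 and Fcrla fell by 0.38 and 0.25. The shared signalling chain of Fc receptors, Fcer1g, differed by -0.04 (limma adjusted p = 0.69). Of 16 phagocytic receptors and adaptors, Tyrobp, a signalling adaptor of myeloid cells, rose by 0.48 and Itgb2 by 0.15, and Tlr2 and Tlr4 fell by 0.35 and 0.14. These lists hold some of the 7 genes themselves, which were chosen with results known.

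The monocyte and macrophage marker list, which holds none of the 7 genes, had a median between -0.01 and 0.03 in each of the 8 arrays. Of its 18 measured genes 2 rose and 0 fell: Ccr2 by 2.25 ± 0.18 and Mpeg1 by 0.34. Whether called or not, 9 of the 18 genes differed upward and 9 downward. Among those not called, Csf1r, Cd14 and Adgre1, named after their values were seen, differed by 0.04, 0.01 and -0.0018. Their limma adjusted p was 0.767, 0.924 and 0.989. The granulocyte markers had medians of -0.03 to 0.02 in these arrays, with 2 of 16 higher and 1 lower. Of 10 B-lineage markers 1 rose and 3 fell, and their median was 0.01 to 0.11 without LAP and -0.04 to -0.00 with it. The part of these genes in the result was not tested.

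In the tumours the same genes varied widely. The SD of Slpi over the 16 tumours was 2.19, which exceeded that of 99.4% of genes, and the other 6 lay between the 82nd and the 96th percentile. Cyba and Ncf4, at the 3rd and 7th percentile in the cells, were at the 82nd and 83rd in the tumours. In bulk tumours, fewer cells of a type and less RNA per cell cannot be told apart.

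Cybb was at -0.91, -0.11, -0.56, -1.18 and 0.85 in Blnk preB-ALL and at 0.11, -0.37 and -1.24 in LAP/Blnk preB-ALL. LAP preB-ALL gave 0.22, 1.93, -0.72 and 1.28, while LAP B-ALL gave 1.88, 1.28, 1.38 and -0.56. LAP B-ALL 1 to 3 and LAP preB-ALL 2 and 4 were thus the high tumours, and the tumour labelled LAP B-ALL 4 lay with the low ones. Cyba was at -0.86, -0.09, -0.33, -0.12 and 0.09 in Blnk preB-ALL and at -0.09, -0.41 and -0.70 in LAP/Blnk preB-ALL. LAP preB-ALL gave 0.43, 0.18, -0.20 and 0.94, while LAP B-ALL gave 1.13, 1.03, 0.80 and 0.10. All LAP B-ALL values of Cyba exceeded all those of the groups that lack Blnk, the closest being 0.10 against 0.09.

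Ncf4 was at -0.73, 0.26, -0.76, -0.19 and -0.26 in Blnk preB-ALL and at 0.15, -0.15 and -0.81 in LAP/Blnk preB-ALL. LAP preB-ALL gave -0.56, 0.24, -0.39 and 0.61, while LAP B-ALL gave 0.82, 1.34, 0.36 and 0.48. LAP B-ALL was the highest group and overlapped LAP preB-ALL only. Ctss was at -0.61, 0.04, -0.04, -0.43 and 0.59 in Blnk preB-ALL and at -0.41, -0.91 and -0.67 in LAP/Blnk preB-ALL. LAP preB-ALL gave -0.04, 0.86, -0.18 and 0.81, while LAP B-ALL gave 1.04, 0.61, 1.15 and 0.08. Both groups with the Blnk gene lay above all LAP/Blnk preB-ALL in Ctss.

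Fcgr1 was at -1.09, 0.04, -0.00, 0.00 and 1.42 in Blnk preB-ALL and at -1.52, -0.94 and -1.76 in LAP/Blnk preB-ALL. LAP preB-ALL gave -1.58, -1.04, 0.68 and 1.41, while LAP B-ALL gave 0.86, 0.96, 2.32 and -0.21. LAP preB-ALL fell into a low and a high pair. Slpi was at -1.28, 0.58, -1.47, -1.61 and 2.28 in Blnk preB-ALL and at -0.21, -1.79 and -1.71 in LAP/Blnk preB-ALL. LAP preB-ALL gave -1.60, 4.92, -0.35 and 3.37, a 92.1-fold range, while LAP B-ALL gave 0.21, 4.11, 1.46 and 0.59. The transgene was therefore present by label in the highest and in the lowest Slpi tumours.

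Lyz2 followed another order. Blnk preB-ALL gave -0.05, 0.50, 0.27, -0.79 and 0.54, and LAP/Blnk preB-ALL gave -0.11, -0.31 and -0.31. LAP B-ALL gave 0.25, -0.48, 0.05 and 0.24. LAP preB-ALL gave 0.05, 1.22, -0.50 and -1.73, which holds both the highest and the lowest of the 16 tumours. LAP preB-ALL 4, the lowest in Lyz2, was among the highest in Slpi, Cybb and Fcgr1.

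**Figure D2:**
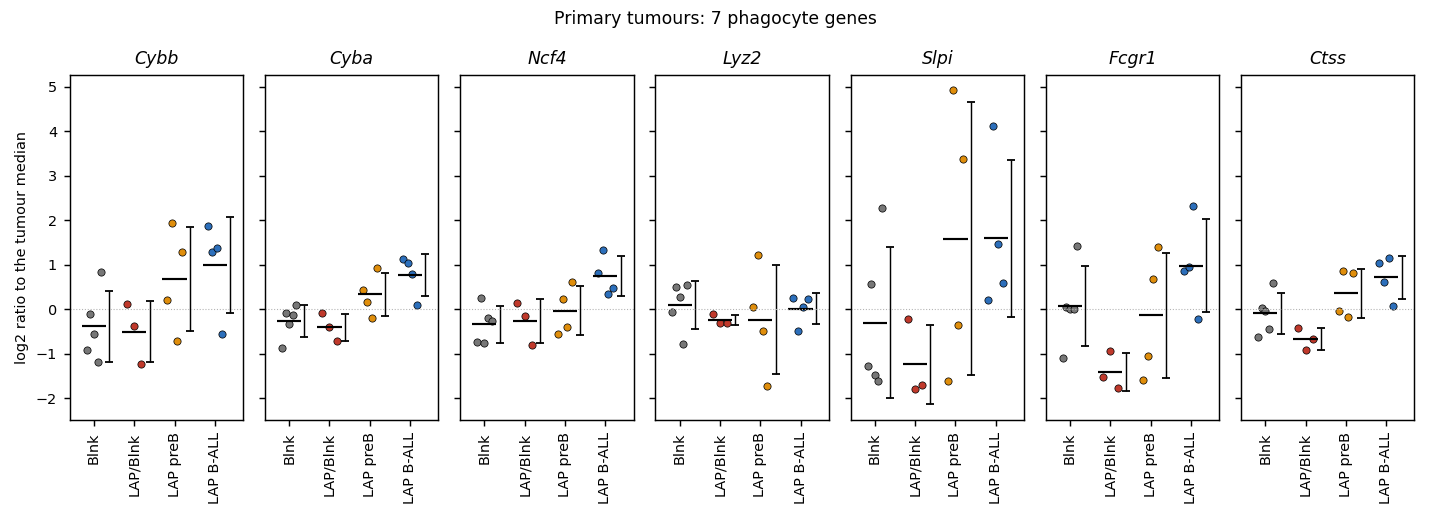
Log2 ratio (vertical axis, relative to the median of the 16 tumours) of the 7 measured genes in the 4 tumour groups; each point is 1 tumour and each bar the mean of its group. Cyba, Ncf4, Ctss, Cybb and Fcgr1 have their highest group mean in LAP B-ALL (0.77, 0.75, 0.72, 1.00 and 0.98). The Slpi mean is 1.59 in both LAP B-ALL and LAP preB-ALL, while Lyz2 overlaps in all groups.

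LAP/Blnk preB-ALL was set against Blnk preB-ALL, the pair that differs by the transgene as the 2 cell-line groups differ by the retrovirus. By limma 0 of the 7 genes passed the test, where 0.0175% of all genes did (3 genes). At an unadjusted p under 0.05 there were 0 of the 7, against 5.78% of all genes. The difference was -0.11 ± 0.66 (SE, n = 3 and 5) for Cybb, -0.94 ± 1.40 for Slpi, -0.34 ± 0.49 for Lyz2 and -1.48 ± 0.71 for Fcgr1. The 95% intervals were -1.52 to 1.29 for Cybb, -1.39 to 0.71 for Lyz2, -3.95 to 2.08 for Slpi and -3.00 to 0.03 for Fcgr1, each below the difference of that probe set in the cells. The other Cybb probe sets, which differed by less in the cells, gave -0.06 ± 0.68 and 0.09 ± 0.70. The further Fcgr1 probe set gave -0.19 ± 0.33. The signs of Cybb and Cyba turned under other settings, and those of Cybb, Cyba and Ncf4 with a sample left out.

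The effects of LAP in tumours and in cells were compared directly as a difference of differences, in which the separate baselines cancel. Lyz2 differed by -1.86 ± 0.30 (SE; limma adjusted p = 0.00906) and Cybb by -2.41 ± 0.51 (limma adjusted p = 0.0382), both lower in tumours. These were 2 of the 7 genes, where 0.532% of all genes were called lower and 1.05% in either direction. The genes were chosen with earlier results of these data known, and their rise in the cells enters this difference. The count is therefore a description and tests nothing, as are the counts of the 7 genes in the tumour comparisons. Slpi differed by -3.48 ± 0.98 (limma adjusted p = 0.112) and Fcgr1 by -1.89 ± 0.52 (limma adjusted p = 0.102), which missed the threshold. The further Fcgr1 probe set differed by -0.24 ± 0.15 (limma adjusted p = 0.553). Ctss, Cyba and Ncf4 differed by -0.37, -0.13 and 0.09.

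The Cybb call did not hold for its other probe sets, which differed by -0.85 (limma adjusted p = 0.393) and -0.28 (limma adjusted p = 0.871). It was also lost without any single cell-line array and without Blnk preB-ALL 2, LAP/Blnk preB-ALL 2 or LAP/Blnk preB-ALL 3, at limma adjusted p of up to 0.092, and with quantile normalisation (limma adjusted p = 0.0755). Without Blnk preB-ALL 5, 4 of the 7 genes were called. This fit takes 1 spread for each gene, while the SD of Cybb was 0.07 and 0.10 in the cell-line groups and 0.80 and 0.68 in the tumour groups. For Lyz2 the SD was 0.007 and 0.04 in the cells and 0.55 and 0.11 in the tumours. The SEs of 0.51 (Cybb) and 0.30 (Lyz2) were below those of the tumour difference alone, 0.66 and 0.49, fitted with all tumour groups. With all 24 arrays in the fit 0 of the 7 genes were called. Both calls, that of Lyz2 included, thus depend on which arrays share the spread.

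**Figure D3:**
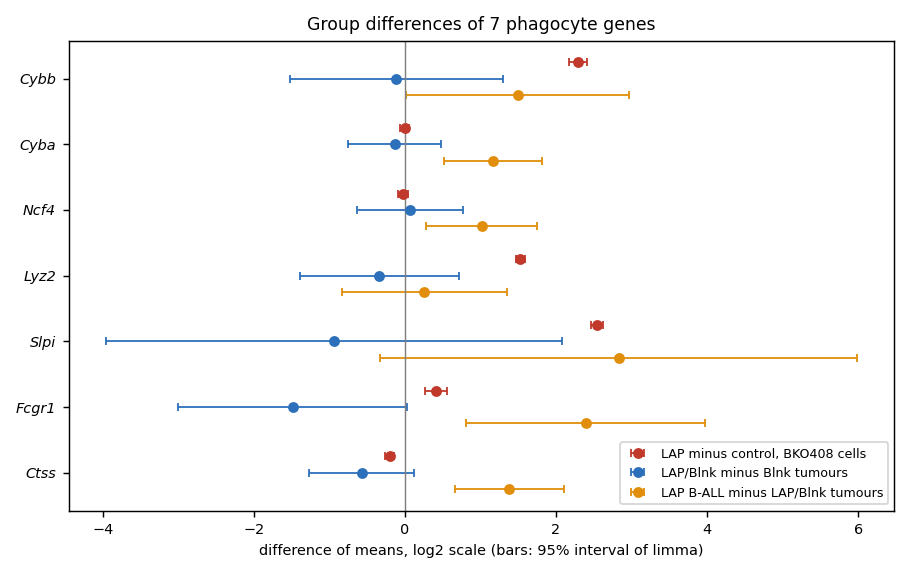
Difference in log2 ratio (horizontal axis) of the 7 measured genes, with the 95% interval of the limma fit. The comparisons drawn are LAP in BKO408 cells, LAP/Blnk against Blnk preB-ALL and LAP B-ALL against LAP/Blnk preB-ALL. The LAP differences in BKO408 cells have the narrowest intervals, and those of LAP/Blnk against Blnk preB-ALL include 0 for all 7 genes.

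LAP B-ALL against LAP/Blnk preB-ALL, which differ in Blnk genotype and in the kind of leukaemia, gave the calls among the tumours. Ctss was higher in LAP B-ALL by 1.38 ± 0.34 (SE, n = 4 and 3; 2.61-fold; limma adjusted p = 0.0415) and Cyba by 1.17 ± 0.30 (2.24-fold; limma adjusted p = 0.0496). These were 2 of the 7 genes, where 1.32% of all genes were higher (3.52% in all). Fcgr1, Ncf4, Slpi and Cybb differed by 2.39 ± 0.74, 1.02 ± 0.34, 2.83 ± 1.47 and 1.49 ± 0.69, with limma adjusted p of 0.0849, 0.104, 0.278 and 0.22, and Lyz2 by 0.26 ± 0.51. The further Fcgr1 probe set differed by 0.84 ± 0.34 (limma adjusted p = 0.166). The groups did not overlap in Ctss, Cyba, Fcgr1, Ncf4 and Slpi, 5 of the 7 genes, as held in that direction for 10.9% of all genes. The two-sided exact permutation p was 0.0286 for Ncf4, the smallest that 4 against 3 allows, and 0.0571 for the other 4 of these genes, or 0.175 and 0.194 adjusted. Both limma calls were lost without any 1 of LAP B-ALL 1, 2 and 3 or of the LAP/Blnk preB-ALL. Without the tumour labelled LAP B-ALL 4 there were 3 calls, while those among all genes went from 602 to 1980.

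LAP B-ALL against Blnk preB-ALL gave 0 calls among the 7 genes by limma, where 1.45% of all genes passed, and 4 had an unadjusted p under 0.05, as had 21.2% of all genes. Cyba differed by 1.03 ± 0.26 (SE, n = 4 and 5; limma adjusted p = 0.0634), Ncf4 by 1.09 ± 0.30 (limma adjusted p = 0.078), Ctss by 0.81 ± 0.30 (limma adjusted p = 0.139) and Cybb by 1.38 ± 0.60 (limma adjusted p = 0.209). The groups did not overlap in Cyba and Ncf4, 2 of the 7 genes, as held in that direction for 3.36% of all genes. The exact permutation p, two-sided, was 0.00794 for Cyba, 0.0159 for Ncf4 and 0.0397 for Ctss, or 0.175, 0.175 and 0.194 adjusted over the 49 tests. Without the tumour labelled LAP B-ALL 4, Cyba, Ncf4 and Ctss were called, while the calls among all genes went from 248 to 1835. This comparison and the previous one share the LAP B-ALL samples.

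The other tumour comparisons gave no limma call among the 7 genes. LAP preB-ALL against Blnk preB-ALL had 0.0819% of all genes called, and of the 7 genes Cyba alone, at 0.60 ± 0.26, had an unadjusted p under 0.05, as had 13.2% of all genes. In LAP/Blnk preB-ALL against LAP preB-ALL, with 2.37% of all genes called, Ctss was at -1.02 ± 0.34 (limma adjusted p = 0.134) and Cyba at -0.74 ± 0.30 (limma adjusted p = 0.22), both with an unadjusted p under 0.05, as had 18% of all genes. Ctss was the 1 of the 7 genes without overlap in that comparison, against 8.18% of all genes in the same direction. LAP B-ALL against LAP preB-ALL gave 0 calls (0%) among all genes by limma, against 1886 (11%) at an unadjusted p under 0.05, and Ncf4, at 0.77 ± 0.32, was the 1 of the 7 genes with an unadjusted p under 0.05. By the exact permutation test, 0 of the 7 genes had an unadjusted p under 0.05 in these 3 comparisons and in LAP/Blnk against Blnk preB-ALL.

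In LAP B-ALL against LAP/Blnk preB-ALL other lysosomal genes passed with Ctss, where 1.32% of all genes were higher and 3.52% passed in all. Nothing particular to a list is read from its count. Of 18 cathepsins and lysosomal proteases 2 rose, Ctss and Ctsa (0.78 ± 0.14; limma adjusted p = 0.0109), the protective protein of lysosomal sialidase. Of 31 lysosomal membrane and hydrolase genes 3 rose and 0 fell: Npc1, a cholesterol exporter, by 1.09 ± 0.20, Man2b1, a mannosidase, by 0.87 and Mcoln1, a lysosomal calcium channel, by 0.66. Of 16 phagocytic receptors Marco, a scavenger receptor of macrophages, rose by 5.58 ± 1.27 (limma adjusted p = 0.0318). The 6 oxidase complex genes had 1 call, Cyba, and the peroxide, inhibitor, lysozyme and Fc receptor lists had none. In LAP B-ALL against Blnk preB-ALL, where 1.45% of all genes passed, Atp6v0d1, of the proton pump, rose by 0.58. Prdx4, a peroxide reductase, fell there by 0.92. In LAP/Blnk preB-ALL against LAP preB-ALL, where 2.37% of all genes passed, Ctsa fell by 0.63 (limma adjusted p = 0.0405).

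Markers of several other cell types moved with these genes, Lyz2 apart, in the tumours, those of monocytes and macrophages among them. The median of their 18 measured genes was -0.54 to 0.80 in Blnk preB-ALL, -0.73 to -0.36 in LAP/Blnk preB-ALL, -0.54 to 0.73 in LAP preB-ALL and 0.07 to 1.51 in LAP B-ALL. Over the 16 tumours this median correlated with Ctss at r = 0.93, Cybb at 0.86, Cyba at 0.81, Fcgr1 at 0.79, Slpi at 0.72, Ncf4 at 0.71 and Lyz2 at 0.14, given as a description. Of the 18 genes 1 passed the test in LAP B-ALL against LAP/Blnk preB-ALL, Marco, and their median difference there was 1.53. The granulocyte markers had medians of -0.71 to 3.16, -0.68 to 0.50, -0.51 to 2.44 and 1.10 to 2.27 in the groups in the same order, and correlated with the 7 genes at -0.10 to 0.64.

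T-cell markers had medians of -0.43 to 1.19, -0.43 to -0.12, -0.47 to 1.5 and 0.03 to 2.26, and correlated with Ctss at 0.89 and with Cybb at 0.83. Dendritic cell markers had medians of -0.30 to 0.49, -0.30 to 0.02, 0.04 to 0.35 and -0.07 to 0.86, and correlated with Ctss at 0.90 and with Cybb at 0.86. NK cell markers had medians of -0.21 to 0.81, -0.35 to -0.00, -0.29 to 0.80 and -0.08 to 0.79, and correlated with Ctss at 0.85 and with Slpi at 0.79. Erythroid and platelet markers had medians of -0.33 to 0.38, -0.45 to -0.18, -0.46 to 2.13 and 0.03 to 2.51, with Hba-a1, a globin gene, higher by 5.77 in LAP B-ALL than in LAP/Blnk preB-ALL. Erythroid and platelet markers correlated with the 7 genes at -0.36 to 0.80, and B-lineage markers at -0.32 to 0.36. The B-lineage medians were -0.14 to 0.32, 0.09 to 0.30, -0.87 to -0.12 and -0.58 to 0.92 in the groups in the same order. LAP preB-ALL thus lay below LAP/Blnk preB-ALL without overlap. Stroma and endothelium markers had medians of -0.06 to 1.37, 0.06 to 0.28, -0.52 to 0.41 and -0.26 to 0.07. Their correlations with the 7 genes were -0.31 to 0.22, or -0.68 to -0.08 by rank (Spearman's rho). Which markers are absent from a tumour cannot be read from centred values. The part of these markers in the results was not tested.

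**Figure D4:**
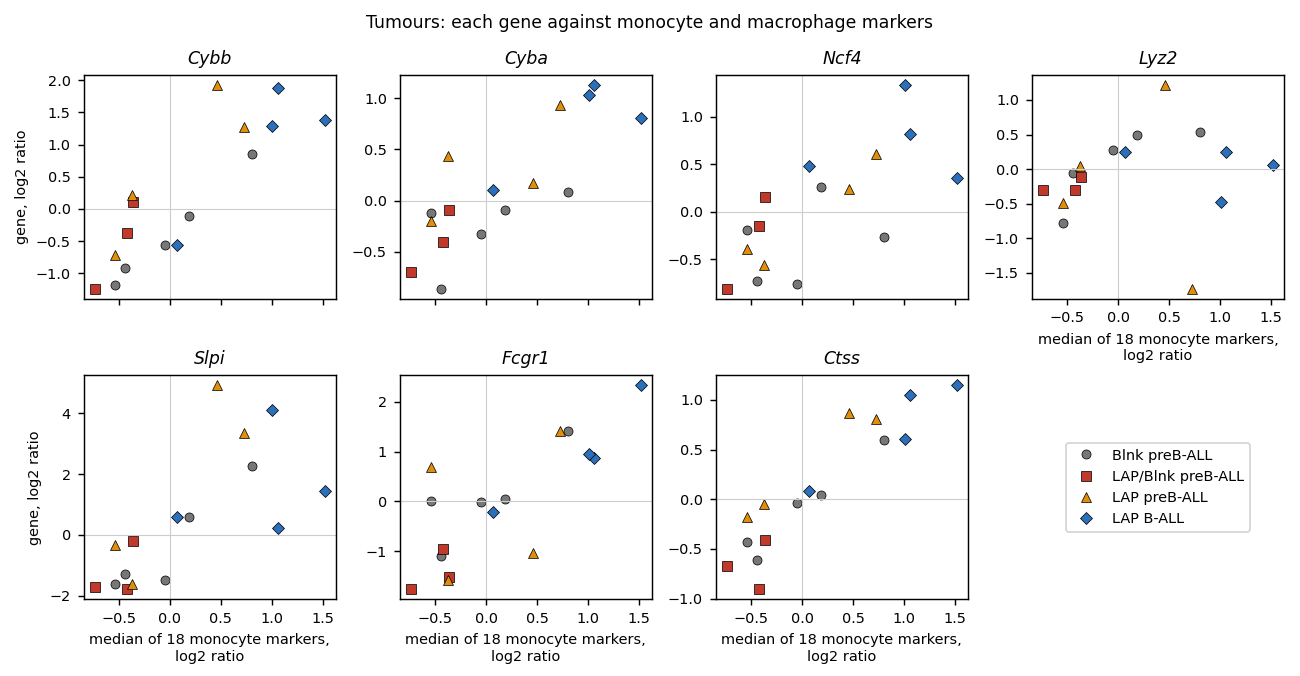
Log2 ratio of each measured gene (vertical axis) against the median log2 ratio of 18 monocyte and macrophage markers (horizontal axis); each point is 1 of the 16 tumours and its colour the group. Ctss (r = 0.93) and Cybb (r = 0.86) follow the markers, and Lyz2 (r = 0.14) is scattered.

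The genes were then correlated with each other over the tumours. Of 21 pairs, 18 had a positive Pearson r, with a median of 0.63, and 12 passed an adjusted permutation p of 0.05, all positive. The permutations moved values across the tumour groups, so differences between groups enter these p-values. The share over other pairs of genes was not computed, and nothing particular to these genes is read from the count. The 9 pairs that did not pass were the 6 of Lyz2 and those of Fcgr1 with Cybb, Slpi and Ncf4 (r = 0.49, 0.47 and 0.50, adjusted permutation p = 0.0836, 0.0904 and 0.077). By Spearman's rho 14 pairs passed. By Pearson r the closest pair was Cybb and Ctss, with r = 0.89 and rho = 0.84. Their permutation p was 1e-05 for r, the smallest that 100000 resamples can give, and 0.0001 for rho, or 0.00021 and 0.0007 adjusted. This pair kept r = 0.86 without the 2 tumours farthest from the median of Cybb. By rho, the pairs of Cyba with Ctss (0.86) and with Cybb (0.85) were closer. Cyba had r = 0.84 with Ctss, 0.83 with Cybb and 0.81 with Ncf4, and Slpi had r = 0.79 with Cybb.

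Lyz2 had r of -0.21 to 0.21 with the other genes. As deviations from the means of their groups, the 21 pairs had a median r of 0.43, and Cybb and Ctss kept r = 0.89. The tumours share the marker differences given above, and no p was computed for the deviations.

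The 3 genes most like each member, by Pearson r over the 16 tumours among the 17097 genes, differed between members. They were Wsb2, Traf1 and Bcl2a1a for Cybb (r = 0.95 each), and Gltp, Gbp2 and Ptpn1 for Cyba (0.95, 0.94 and 0.93). They were Dapp1, Prorsd1 and Flt3l for Ncf4 (0.91, 0.89 and 0.88), and Agap1, Sort1 and Rab13 for Fcgr1 (0.91, 0.91 and 0.89). Ctss was most like Bcl2a1a, Tmbim6 and Tlr1 (0.97, 0.96 and 0.96), and shared Bcl2a1a, a survival gene of blood cells, with Cybb. Slpi was most like Ehd4, Alcam and Tmem62 (0.89 each). Lyz2 was most like Fcrl1, a gene of B cells (0.87), Far1 (0.82) and Lyz1 (0.78), and had 2 genes above 0.8, against 386 for Cybb and 439 for Ctss.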

How the data were processed

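Per the labels' protocols, total RNA was extracted and 100 ng was made into biotin-labelled cRNA for Affymetrix arrays. The submitters' processing notes name MAS5 alone, without a version. The values the authors deposited are log ratios and were read as log2 here. Their base and the scaling of the arrays were not stated. Each of 45141 probe sets has a median of 0 over the 8 cell-line arrays and over the 16 tumours, so no level or detection call was kept.

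Probe sets were named from a platform table of 2016, in which 28898 had 1 symbol, 551 several and 15692 none, and 17055 of the 17097 symbols were found in the GRCm38.p6 RefSeq table. Each gene was read by the probe set that varied most, groups ignored. Tests used limma 3.58.1 (R 4.3.3; lmFit and eBayes without a trend, two-sided). P-values were adjusted by Benjamini-Hochberg over 17097 genes, and 0.05 was the threshold. Cells and tumours were fitted separately. For the difference of LAP effects, the groups BKO408, BKO408 LAP, Blnk preB-ALL and LAP/Blnk preB-ALL were fitted together. Single genes were also compared with exact permutation tests and pairs of genes with 100000 permutations (scipy 1.17.1). On simulated data the fit recovered 96% of changes of 0.5 in the cells, and 28% of changes of 0.5 and 84% of changes of 2 in LAP B-ALL against LAP/Blnk preB-ALL. The plan counted 28 pairs of genes, of which 21 could be measured.

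The genes, the lists of related genes and the marker lists were chosen with earlier results of these data known. Named genes are the members, up to 4 of the largest changes in a list that passed (2 where none passed) and the 3 most like genes of each member; Cebpb, Lyz1 and some further list members named beside them were chosen after their values were seen. Alternatives were the mean of probe sets, quantile normalisation, centred arrays, array weights, a variance trend, the genes of above-median spread, a replicate block, other sets of samples in the fit and leaving out each sample.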

Additional observations from a re-analysis of the deposited data

Results flagged for a closer look

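Cybb and Lyz2 were marked because the effect of LAP differed between tumours and cells by a test of the difference itself. Both were chosen with earlier results of these data known. For Cybb the difference of differences was -2.41 ± 0.51 (SE; limma adjusted p = 0.0382), from 2.29 in BKO408 cells and -0.11 in the tumours. For Lyz2 it was -1.86 ± 0.30 (limma adjusted p = 0.00906), from 1.53 in cells and -0.34 in tumours. The Cybb value comes from 1 of 3 probe sets, and the others gave -0.85 and -0.28. Both p-values rest on 1 spread per gene over cells and tumours, and neither gene was called with all arrays in one fit. Markers of other cell types varied between the tumours, with monocyte and macrophage medians of -0.54 to 0.80 in Blnk preB-ALL and -0.73 to -0.36 in LAP/Blnk preB-ALL, and their part in the result was not tested. Of 35 groups of 4 or more samples of the 7 genes, 0 held a sample apart by Dixon's test at the 95% level.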

How the results depend on the processing

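In BKO408 cells 5 of the 7 genes were called by limma under each setting but one, including a replicate block and each array left out (5 to 5). With all arrays in one fit 0 were called. The exact permutation test gave 5 at an unadjusted p under 0.05 and, in every comparison, 0 after adjustment. All-gene counts ranged from 3080 to 3515 with an array left out and from 21 to 3871 under other settings. LAP B-ALL against LAP/Blnk preB-ALL had 2 calls, against 1 with probe sets averaged, with only the groups compared or by the unadjusted exact test, 5 with array weights, 5 with the replicate block, 4 without both doubted tumours (LAP B-ALL 4 and Blnk 5, left out after seeing the data) and 0 to 3 with a tumour left out. LAP B-ALL against Blnk preB-ALL had 0 calls, against 4 with array weights, 3 without both doubted tumours, 3 by the unadjusted exact test and 0 to 3 with a tumour left out. The difference of LAP effects had 2 calls, against 1 with the mean of probe sets (Lyz2), 4 with array weights, 0 with all arrays in one fit and 1 to 4 with an array left out. The cause of these changes was not tested.

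All-gene counts ranged, over leaving out a tumour and over other settings, from 246 to 1980 and 524 to 4063 in LAP B-ALL against LAP/Blnk preB-ALL (602), from 47 to 1835 and 0 to 3619 in LAP B-ALL against Blnk preB-ALL (248), from 85 to 304 and 0 to 684 in LAP/Blnk against LAP preB-ALL (406), from 2 to 13 and 0 to 33 in LAP/Blnk against Blnk preB-ALL (3), from 0 to 17 and 0 to 82 in LAP preB-ALL against Blnk preB-ALL (14), from 0 to 291 and 0 to 4 in LAP B-ALL against LAP preB-ALL (0), and from 75 to 691 and 17 to 820 in the difference of LAP effects (180). Correlated pairs numbered 11 to 14 with a tumour left out.

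No called gene turned its sign. Among genes not called, Cyba in cells turned to 0.0075 with quantile normalisation and 0.0024 with centred arrays. In LAP/Blnk against Blnk preB-ALL, Cybb turned to 0.11 with array weights, 0.031 with the replicate block and 0.19 without both doubted tumours, and Cyba to 0.026 with the block. In LAP preB-ALL against Blnk preB-ALL, Fcgr1 turned to 0.13 with the block and without both doubted tumours. In LAP/Blnk against LAP preB-ALL, Lyz2 turned to 0.0016 with centred arrays and 0.010 with array weights. In LAP B-ALL against Blnk preB-ALL, Lyz2 turned to 0.032 with the block.

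With a sample left out, ranges crossed 0 for Cyba in cells (-0.013 to 0.0096), for Cybb (-0.42 to 0.25), Cyba (-0.29 to 0.013) and Ncf4 (-0.14 to 0.34) in LAP/Blnk against Blnk preB-ALL, for Fcgr1 (-0.72 to 0.27) and Lyz2 (-0.82 to 0.16) in LAP preB-ALL against Blnk preB-ALL, for Lyz2 (-0.50 to 0.48) and Ncf4 (-0.45 to 0.026) in LAP/Blnk against LAP preB-ALL, for Slpi (-1.06 to 1.12), Cybb (-0.15 to 0.83) and Lyz2 (-0.24 to 0.74) in LAP B-ALL against LAP preB-ALL, for Lyz2 (-0.30 to 0.085) in LAP B-ALL against Blnk preB-ALL, and for Cyba (-0.29 to 0.018) and Ncf4 (-0.12 to 0.36) in the difference of LAP effects. Same-numbered cell-line arrays had correlated deviations of 0.13, 0.26, -0.03 and 0.09, and no tumour comparison had every such value over 0.1, so the replicate block joins samples that share a number only. The number of arrays limits the precision.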
